A study of Mus musculus with 14 samples.

Results

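The regions described here are the 747 accessible regions of chromosome 17 that start between positions 30000000 and 49000000 of the mouse genome (GRCm38), the 19 Mb that hold the H2 genes of the major histocompatibility complex (MHC). They were chosen by position from a table of 67254 regions, of which 2926 lay on chromosome 17. Of the 747 regions, 685 had enough counts to be tested and 62 did not. The genome-wide table was made by bulk ATAC-seq, in which a transposase cuts into open chromatin and the number of fragments falling in a region measures its accessibility.

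The cells were regulatory T cells (Tregs) sorted from the spleen of mixed bone marrow (BM) chimeras, in which CD45.2+ marrow of a control or a deficient donor was mixed 1:1 with CD45.1+ wild-type marrow and given to sublethally irradiated Rag1-/- hosts, mice without T and B cells of their own. Control donors carried Foxp3Cre with a single floxed Atg14 allele (Foxp3Cre Atg14+/fl), and deficient donors carried Foxp3Cre with both alleles floxed (Foxp3Cre Atg14fl/fl). Every group therefore carried the Cre, which the Foxp3 gene drives in Foxp3-expressing cells, and at least a single floxed allele, on the C57BL/6 background. Donor-derived CD45.2+ Tregs were sorted by Foxp3-YFP into central Tregs (cTregs), low in CD44 and high in CD62L (CD44-CD62L+ in the labels), and effector Tregs (eTregs), high in CD44 and low in CD62L (CD44+CD62L- in the labels), and there were 3 control cTreg, 4 Atg14-deficient cTreg, 3 control eTreg and 4 Atg14-deficient eTreg libraries. Per the methods, the spleens were those of 3 control and 4 deficient chimeras, as many as the libraries of each population, while the labels tie no library to a mouse.

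The MHC is a dense cluster of genes for antigen presentation. Its classical class I molecules, built from a heavy chain such as H2-K1 or H2-D1 and B2m, show peptides from inside the cell to CD8+ T cells, its class II molecules show peptides from ingested material to CD4+ T cells, and between the class II genes and H2-D1 lie the class III genes for complement, heat shock proteins and the TNF family. Beyond H2-D1 the mouse cluster continues into the non-classical class I genes of the Q, T and M regions, among them H2-M3, which presents N-formylated peptides of bacteria and mitochondria. Atg14 is the subunit that directs the lipid kinase Vps34 to autophagy.

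The segment was marked out with the genotype differences of these same libraries known, in particular the large difference at H2-M3. All genotype values of its regions are therefore a description, and no test of them is given as support. At the edges, the last region before the segment, upstream of Zfand3 at 29979846 to 29980255, had log2 fold changes (Atg14-deficient over control) of 0.03 in eTregs and 0.25 in cTregs, and the first region within it, the Zfand3 promoter at 30004201 to 30005175, had 0.50 and -0.22. The last region within it, at Lrfn2 from 48931687 to 48932155, had 0.16 and -0.16. The next region beyond, at Gm30475 from 49171550 to 49171863, had -1.71 and -0.88, with all 8 Atg14-deficient libraries below all 6 control libraries.

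The sequences of the 5 regions past the adjusted threshold between genotypes in eTregs (defined with the counts of calls) from the GRCm38 reference (plus strand, 5′ to 3′) are given because these regions passed that threshold. Some regions with fewer counts, such as Gm6623, had larger fold changes than some of the 5 and did not pass. Capitals mark matches, on either strand, to any of the 5 motifs searched, namely AP-1 (TGANTCA), RUNX (TGTGGTT), ETS (CCGGAAGT), the CCAAT box (CCAAT) and the core of the interferon-stimulated response element or ISRE (GAAANNGAA). No match in these sequences overlapped another. For H2-M3 the bases before the transcription start and the centre of a second region are shown, for Tmprss3 the whole region, and for the others the central 300 bases.
H2-M3 upstream of the start, chr17:37270028-37270233: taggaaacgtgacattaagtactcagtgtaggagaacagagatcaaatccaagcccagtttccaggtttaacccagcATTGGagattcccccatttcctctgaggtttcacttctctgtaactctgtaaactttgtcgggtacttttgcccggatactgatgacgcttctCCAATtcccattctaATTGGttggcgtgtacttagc
H2-M3 second region, chr17:37270832-37271131: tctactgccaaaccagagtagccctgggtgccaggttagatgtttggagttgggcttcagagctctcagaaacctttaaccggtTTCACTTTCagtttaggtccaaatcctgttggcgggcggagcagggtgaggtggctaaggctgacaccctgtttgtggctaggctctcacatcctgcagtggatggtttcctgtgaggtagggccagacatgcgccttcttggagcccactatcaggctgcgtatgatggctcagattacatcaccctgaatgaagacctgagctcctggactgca
H2-T3 distal region, chr17:36205442-36205741: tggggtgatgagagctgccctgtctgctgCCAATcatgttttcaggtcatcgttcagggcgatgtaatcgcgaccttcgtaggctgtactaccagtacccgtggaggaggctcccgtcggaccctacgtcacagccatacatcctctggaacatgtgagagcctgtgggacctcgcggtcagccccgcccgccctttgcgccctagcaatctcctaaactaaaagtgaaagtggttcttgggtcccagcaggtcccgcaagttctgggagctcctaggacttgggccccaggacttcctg
Tmprss3 region, chr17:31184651-31184935: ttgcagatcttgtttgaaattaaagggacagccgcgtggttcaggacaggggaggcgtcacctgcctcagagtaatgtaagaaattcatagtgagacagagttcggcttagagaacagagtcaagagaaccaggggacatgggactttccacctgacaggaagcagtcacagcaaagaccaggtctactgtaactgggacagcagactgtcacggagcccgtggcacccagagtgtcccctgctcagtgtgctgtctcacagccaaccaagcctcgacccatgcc
Apobec2 region, chr17:48428089-48428388: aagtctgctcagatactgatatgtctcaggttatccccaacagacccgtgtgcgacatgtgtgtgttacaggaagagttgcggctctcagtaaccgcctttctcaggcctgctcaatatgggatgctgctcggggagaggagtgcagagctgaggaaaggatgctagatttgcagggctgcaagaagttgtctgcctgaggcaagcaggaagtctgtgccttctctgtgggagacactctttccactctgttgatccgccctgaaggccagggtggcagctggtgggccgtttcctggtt

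The H2-M3 upstream sequence held 3 CCAAT boxes, the second H2-M3 region 1 ISRE core on the minus strand and the H2-T3 distal region 1 CCAAT box. No match to the 5 motifs lay in the printed Tmprss3 and Apobec2 sequences. Such a match is a description of the letters and not evidence that a factor binds.

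Total counts per library were between 2242983 and 5548189, and levels are given as CPM, the count of a region per 1e+06 counts of its library. Between 74.7% and 87.0% of the values in a library's column were even numbers, so that counts often came in pairs and intervals from counting error alone are too narrow. The segment held between 0.758% and 1.04% of the counts of a library. Summed over the regions nearest to each marker gene, the Treg markers Foxp3, Il2ra, Ctla4 and Ikzf2 had between 434 and 702 CPM in the 14 libraries and the B cell markers Cd79a and Ebf1 between 6.23 and 23.9 CPM. Myeloid markers summed to between 45.5 and 81.7 CPM, and CD8 T cell markers to between 5.44 and 25.2 CPM with the highest values in Atg14-deficient cTregs. Atg14 itself, on chromosome 14, had 5 tested regions, with log2 fold changes from -0.48 to 1.15 in eTregs and from -0.68 to 0.84 in cTregs. Its promoter had 24.2 ± 6.12 CPM (n = 3, SD) in control and 24.8 ± 3.91 CPM (n = 4, SD) in Atg14-deficient eTregs, and since the sources used here do not place the floxed exon, these values do not check the deletion. In bulk libraries fewer cells of a type and less signal per cell cannot be told apart.

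How did the genotypes differ along the segment? Accessibility was mostly higher in Atg14-deficient cells. Among the 685 tested regions the median log2 fold change was 0.23 in eTregs and 0.11 in cTregs, beside 0.06 and 0.03 over all 61366 tested regions and 0.07 and 0.05 over the 1977 on the rest of chromosome 17. In eTregs 73.0% of the segment's regions had a positive fold change, against 56.2% of all regions, and in cTregs 62.3% against 53.5%. The eTreg value leaned on 1 library. Without Atg14-deficient eTreg replicate 4, in which the segment took the largest share of the counts, the median was 0.14, beside 0.04 over all regions.

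Calls required a log2 fold change beyond 0.5 and p below 0.05 before adjustment, and the adjusted threshold required that fold change and p below 0.05 after Benjamini-Hochberg adjustment (edgeR quasi-likelihood test). In eTregs 68 of the 685 regions were called higher in Atg14-deficient cells (9.93%, beside 4.59% of all tested regions) and 6 lower (0.876%, beside 1.77%). In cTregs 41 were called higher (5.99%, beside 1.99%) and 13 lower (beside 1.35%). Of the 23 regions called in both populations, 19 were higher in both and 4 lower in both, beside 305 of all 61366 tested regions called in both, 188 higher in both and 96 lower in both. Past the adjusted threshold lay 5 regions in eTregs, where the background was 0.0228%, and 2 in cTregs, where it was 0.0163%, each of them higher in Atg14-deficient cells. The DESeq2 Wald test placed 4 regions past it in eTregs and 6 in cTregs, again all higher. In 10 regions every Atg14-deficient library of either population lay above every control library, a pattern found in 0.0831% of all tested regions, and in none did all lie below, beside 0.0473%. Without control eTreg replicate 1 or 3 or Atg14-deficient eTreg replicate 1 or 4, the eTreg count past the adjusted threshold was 2, and both H2-M3 regions passed it under each of the 15 settings in which they were tested in each population. A filter of at least 10 counts in every library left both H2-M3 regions out, since most of their control libraries had fewer. Because the segment was chosen on this contrast, these shares only describe it. None of the 62 regions left out of the test separated the genotypes in all 14 libraries.

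**Figure D1:**
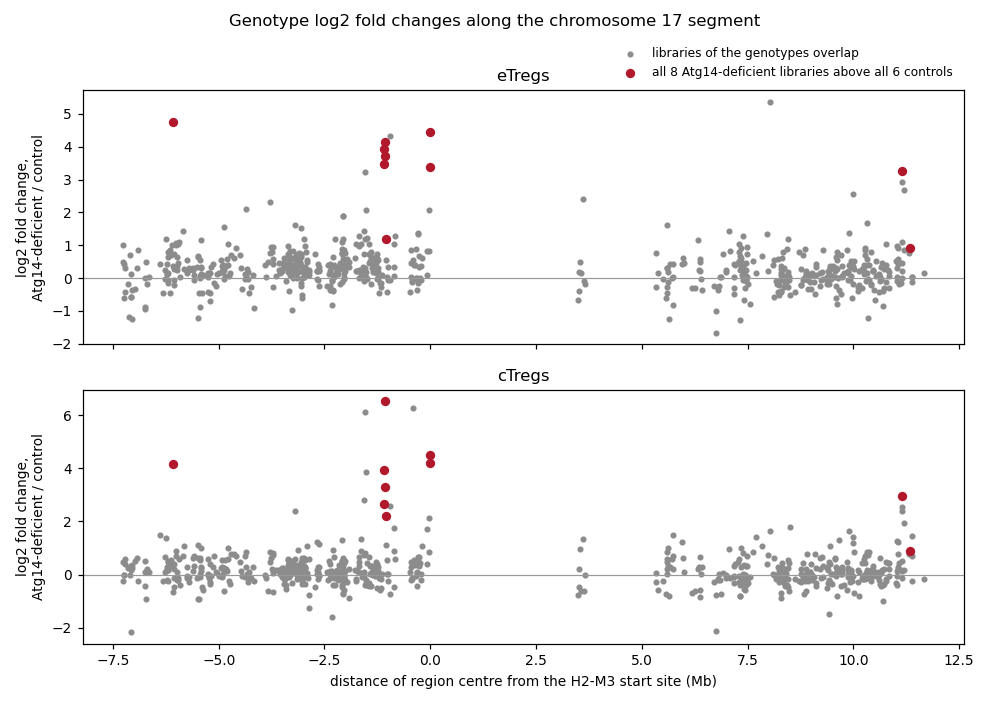
Log2 fold change (Atg14-deficient over control) of each tested region of the segment against its distance in Mb from the H2-M3 start site, in eTregs and in cTregs, with the 10 regions marked in which all 8 Atg14-deficient libraries lay above all 6 controls. Of the marked regions 7 lie between 36 and 38 Mb of the chromosome, 1 near the centromeric end of the segment and 2 near the telomeric end.

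By position, the 1-Mb bin from 35 to 36 Mb, from the class III genes to the Q region, held the most called regions in eTregs, with 20 of its 84 tested regions higher (beside 4.59% of all tested regions), none lower and a median log2 fold change of 0.43. The same bin had 6 higher regions (beside 1.99%), none lower and a median of 0.09 in cTregs. From 36 to 37 Mb, across the T region and the Trim genes, 11 of 47 tested regions were higher in eTregs (beside 4.59% of all tested regions) and 8 in cTregs (beside 1.99%), where 1 was lower, with medians of 0.29 and 0.27. From 37 to 38 Mb, where H2-M3 lies, there were 11 tested regions, of which 3 were higher in eTregs and 4 in cTregs, and the medians of 0.67 and 0.86 exceeded those of the other bins. No region of the table started from 38 to 40 Mb or from 41 to 42 Mb. At the centromeric end, from 30 to 31 Mb, no region was called higher in eTregs and 2 of 26 were called lower (beside 1.77% of all tested regions). In cTregs 1 was higher (beside 1.99%) and 2 were lower (beside 1.35%). At the telomeric end, from 48 to 49 Mb, 6 of 33 were higher in eTregs and 4 in cTregs, and none was lower.

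**Figure D2:**
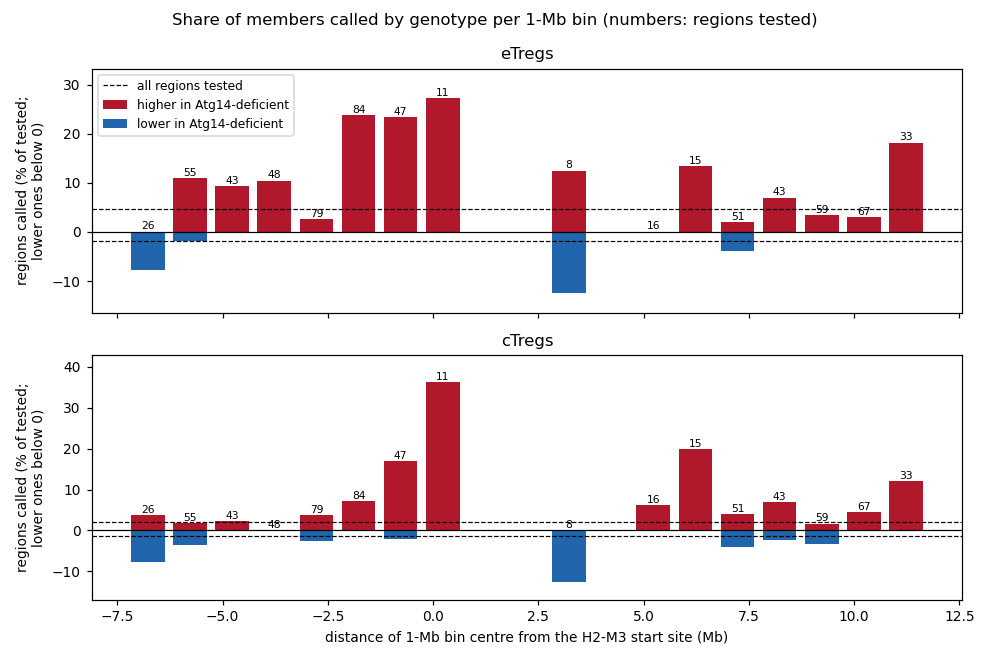
Share of the tested regions of each 1-Mb bin that were called higher (red, above 0) or lower (blue, below 0) in Atg14-deficient cells, by the distance of the bin's centre from the H2-M3 start in Mb, with the number tested over each bar and dashed lines at the shares over all tested regions. The tallest red bar stands at the bin that holds H2-M3, where 3 of 11 regions were higher in eTregs and 4 of 11 in cTregs.

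The regions with all Atg14-deficient libraries above all controls were grouped more closely still. Between 36 and 38 Mb lay 7 of the 10, among 58 tested regions. The window of 2 Mb with the next most such regions, on chromosome 14 from 62 to 64 Mb, held 3 among 86. Regions with all deficient libraries below the controls were not counted by window. By chromosome, 10 lay above and 2 below on chromosome 17, and 4 above and 9 below on chromosome 14. Tmprss3 lay at the centromeric end, and the regions nearest to Apobec2 and Gm24071 at the telomeric end. On the rest of chromosome 17 no region had all Atg14-deficient libraries above the controls, and 2 had all below, at Gm30475 and Kat2b.

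Both regions past the adjusted threshold in cTregs by edgeR lay at H2-M3, and both passed in eTregs too. The promoter region, 37270028 to 37270338, spans the transcription start at 37270234. In control cTregs it had 6, 2 and 4 counts, and in Atg14-deficient cTregs 50, 44, 98 and 70. In control eTregs there were 6, 2 and 19 counts, and in Atg14-deficient eTregs 72, 56, 88 and 77. All 8 Atg14-deficient libraries were high and all 6 controls low, with a wide gap between the highest control and the lowest deficient library. Scaled to the totals, the promoter had 1.24 ± 0.680 CPM (n = 3, SD) in control and 21.6 ± 3.58 CPM (n = 4, SD) in Atg14-deficient cTregs, and 1.97 ± 1.45 CPM (n = 3, SD) and 22.0 ± 1.72 CPM (n = 4, SD) in eTregs. The log2 fold changes were 4.19 (SE 0.43) in cTregs and 3.37 (SE 0.37) in eTregs.

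The second H2-M3 region, 37270769 to 37271193, runs from the end of exon 2 through intron 2 into exon 3. Control cTregs had 10, 4 and 6 counts there and Atg14-deficient cTregs 112, 80, 192 and 146, while control eTregs had 6, 2 and 14 and Atg14-deficient eTregs 134, 72, 150 and 176. The groups again did not overlap, in either population. Means were 2.03 ± 0.932 CPM (n = 3, SD) against 43.9 ± 8.66 CPM (n = 4, SD) in cTregs and 1.67 ± 1.03 CPM (n = 3, SD) against 38.8 ± 6.30 CPM (n = 4, SD) in eTregs, or log2 fold changes of 4.49 (SE 0.34) and 4.46 (SE 0.34). In both cell states the H2-M3 regions thus had few counts in the controls and many in the Atg14-deficient libraries.

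Other separated regions lay in the T region, which holds non-classical class I genes and their pseudogenes. Within Gm8909, a class I gene, the region at 36167584 to 36167902 had 4, 0 and 2 counts in control cTregs, 6, 6, 20 and 16 in Atg14-deficient cTregs, 4, 0 and 0 in control eTregs and 8, 8, 18 and 24 in Atg14-deficient eTregs. The processed pseudogene Gm6623, at 36179064 to 36179319, had 2, 0 and 0 counts, then 2, 14, 12 and 12, then 0, 0 and 2, then 6, 8, 17 and 7 in the same order of groups. These counts are small, and the separation in CPM rests on a difference of a few fragments in the lowest Atg14-deficient libraries. From the 2 control counts of each population, the ratio at Gm6623 was 17.6 in eTregs (exact 95% counting interval 4.56 to 151) and 17.7 in cTregs (4.59 to 151).

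A pair of regions lay nearest to the start of H2-T3, a class I gene whose product is the thymus leukaemia antigen. The nearer, at 36193616 to 36193883 with its centre at -3598 bases from the start, had no count in the 3 control cTreg libraries and 10, 10, 10 and 8 in the Atg14-deficient ones, at least 3.44-fold higher over a floor of 3 counts per library. In control eTregs it had 2, 0 and 0 counts and in Atg14-deficient eTregs 10, 6, 12 and 8, a ratio of 16.7 with an exact 95% counting interval of 4.30 to 143. The distal one, at 36205397 to 36205786 and within the pseudogene Gm8835, had 8, 0 and 2 counts in control cTregs, 6, 28, 32 and 50 in Atg14-deficient cTregs, 3, 0 and 4 in control eTregs and 50, 22, 30 and 38 in Atg14-deficient eTregs. Its log2 fold changes were 3.28 in cTregs and 4.14 in eTregs, and it was past the adjusted threshold in eTregs. Atg14-deficient cTreg replicate 1 was the lowest of the deficient libraries, at 2.52 CPM beside a highest control of 1.96 CPM.

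At the telomeric edge of the T region, the region at 36229111 to 36229480 lay nearest to Rpp21, a subunit of ribonuclease P, and within the processed pseudogene Gm18604. Control cTregs had 2.21 ± 0.368 CPM (n = 3, SD) and Atg14-deficient cTregs 10.5 ± 5.72 CPM (n = 4, SD), a log2 fold change of 2.19. In eTregs the values were 2.13 ± 0.438 CPM (n = 3, SD) and 4.84 ± 1.03 CPM (n = 4, SD), a log2 fold change of 1.19. At Gm24071, described further on, control libraries likewise had means above 2 CPM, whereas at the other separated regions away from H2-M3 the control means were below 1 CPM.

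**Figure D3:**
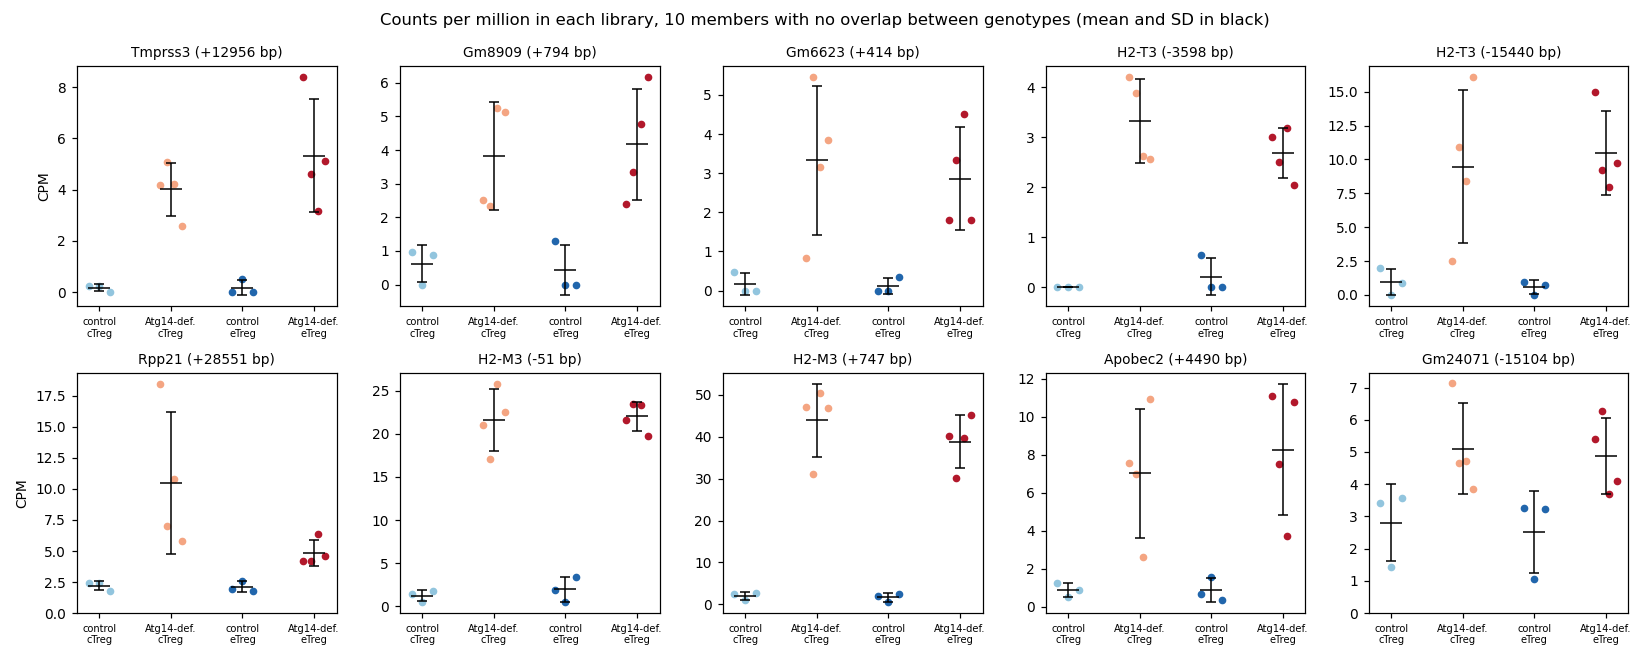
CPM of each of the 14 libraries (points), with the mean and SD of each group in black, at the 10 regions in which all Atg14-deficient libraries lay above all controls, named by the nearest gene and the distance from its start. The red points lie above the blue points in every panel, narrowly at Gm24071, where the group means were 2.81 and 5.10 CPM in cTregs, and widely at H2-M3.

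Away from the class I genes, the Tmprss3 region at 31184651 to 31184935 runs from a coding exon into an intron, where its centre lies, of this transmembrane serine protease gene. It had 1, 1 and 0 counts in control cTregs and 10, 13, 16 and 8 in Atg14-deficient cTregs, and 0, 2 and 0 in control eTregs against 28, 11, 12 and 20 in Atg14-deficient eTregs. The count ratio was 20.8 in cTregs (exact 95% counting interval 5.45 to 177) and 32.9 in eTregs (8.79 to 277). Apobec2, a member of the cytidine deaminase family, held a region in its intron at 48428025 to 48428452 with 0.864 ± 0.372 CPM (n = 3, SD) in control and 7.03 ± 3.41 CPM (n = 4, SD) in Atg14-deficient cTregs, and 0.862 ± 0.634 CPM (n = 3, SD) and 8.28 ± 3.45 CPM (n = 4, SD) in eTregs. Tmprss3 and Apobec2 were past the adjusted threshold in eTregs. The intergenic region nearest to Gm24071, a small nucleolar RNA gene, at 48602582 to 48602856, differed least of the 10, with log2 fold changes of 0.88 in cTregs and 0.92 in eTregs.

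What did the 10 regions share beyond the genotype contrast? None of them differed between cell states past the adjusted threshold in the fit that did not pair eTreg with cTreg libraries. The nearest was Rpp21 in Atg14-deficient cells, with a log2 fold change of -1.09 (eTreg over cTreg, adjusted p = 0.0619, edgeR). At the second H2-M3 region the cell-state difference in Atg14-deficient cells was -0.18 (adjusted p = 0.652, edgeR), and at the H2-M3 promoter 0.02 (adjusted p = 0.974, edgeR).

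In sequence, the 10 regions had a median GC content of 53.7%, against 53.2% for the 685 tested regions and 49.4% for all tested regions, and a median of 2.59% of bases in repeats, against 8.50% and 8.78%. Within the central 200 bp, 10% of them held a CCAAT box and 20% an ISRE core, and none held the AP-1, RUNX or ETS motif. Over the 685 regions the shares were 25.5% for the CCAAT box, 8.91% for the ISRE core, 9.78% for AP-1, 6.72% for RUNX and 2.34% for ETS. In all tested regions they were 21.2%, 7.99%, 11.5%, 10.0% and 1.73%. On the rest of chromosome 17 the CCAAT box had a share of 21.0% and RUNX of 11.0%.

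Class I genes are similar to each other, and short reads from a member of the family can be placed at another. By alignment to the reference (at least 150 bases, expectation at most 1e-05), 13 of the 685 tested regions matched another class I gene of the segment. They included 3 of the 10 separated regions. Gm6623 matched Gm8909 at 96.5% identity over 256 bases, the distal H2-T3 region matched Gm8909 at 92.4% over 393 bases, and the second H2-M3 region matched H2-K1 at 68.5% over 251 bases. The other 10 of the 13 regions, at H2-K1, H2-D1, H2-K2, H2-Q2, H2-T23, H2-Bl, BC023719, H2-T10 and Olfr97, did not separate the genotypes, and the median log2 fold change of the 13 was 0.19 in eTregs and 0.13 in cTregs. A run of 50 bases also found elsewhere in the genome lay in 71 of the 685 regions (10.4%) and in 3 of the 10, where such runs made up 19.8% of positions at Gm6623, 11.8% at the H2-M3 promoter and 3.23% at the distal H2-T3 region. None was present in the second H2-M3 region. The authors kept reads of mapping quality 1 or more, which leaves out reads that the aligner could place equally well at several sites. The part of read placement in these values was not tested.

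The antigen presentation genes of the segment were next taken by their roles, each gene by its most accessible region, that of highest mean count. Their calls stand beside 4.59% higher and 1.77% lower of all tested regions in eTregs and 1.99% and 1.35% in cTregs, and their medians beside 0.06 and 0.03 over all tested regions. Both classical class I genes, H2-K1 and H2-D1, were accessible in every library. The H2-K1 promoter, at 34000092 to 34000606, had between 37.6 and 49.9 CPM in control cTregs, 40.2 and 51.4 CPM in Atg14-deficient cTregs, 40.7 and 44.9 CPM in control eTregs and 43.9 and 54.4 CPM in Atg14-deficient eTregs. Its genotypes overlapped in both populations, with a log2 fold change of 0.19 in eTregs and of 0.10 in cTregs. The H2-D1 promoter had 43.9 ± 2.97 CPM (n = 3, SD) in control and 58.3 ± 9.09 CPM (n = 4, SD) in Atg14-deficient eTregs (log2 fold change 0.41) with every deficient library above the controls, and 49.0 ± 9.65 against 52.9 ± 11.9 CPM in cTregs, where they overlapped. Of the 5 tested regions nearest to these genes, 1 was called higher in eTregs and none in cTregs.

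The non-classical class I genes of the Q and T regions had 14 tested regions, nearest to 11 of the 18 genes listed, of which 3 were called higher in eTregs (beside 4.59% of all tested regions) and 2 in cTregs (beside 1.99%), with 1 lower in cTregs (beside 1.35%). Their median log2 fold changes were 0.40 in eTregs and 0.09 in cTregs. Among the most accessible, the H2-T10 promoter had 64.8 ± 8.93 CPM (n = 3, SD) in control and 68.0 ± 11.8 CPM (n = 4, SD) in Atg14-deficient eTregs, and H2-T22 had 33.8 ± 4.85 and 41.2 ± 7.57 CPM. H2-Bl was called lower in cTregs, from 22.6 ± 5.54 CPM (n = 3, SD) in control to 15.4 ± 3.83 CPM (n = 4, SD) in Atg14-deficient libraries, a log2 fold change of -0.58, while the groups overlapped. H2-Q4 to H2-Q9 and H2-T9 had no tested region.

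The M region list had 10 tested regions at 7 of 12 genes, with 3 called higher in eTregs and 2 in cTregs, the latter both at H2-M3. The H2-M5 region at 36992318 to 36992970 had 7.78 ± 1.12 CPM (n = 3, SD) in control and 9.73 ± 1.61 CPM (n = 4, SD) in Atg14-deficient eTregs (log2 fold change 0.34). At H2-M10.1 the log2 fold changes were -0.07 in eTregs and -0.73 in cTregs, and at H2-M10.5 they were -0.44 and 0.11. The intergenic regions nearest to H2-M10.4 had 1.28 and 0.59 at 36431481 to 36431817, the third region called in eTregs, 1.03 and -0.48 at 36415472 to 36415796, and 0.07 and 0.90 at 36418429 to 36418687. At H2-M10.6 the log2 fold changes were 0.87 in eTregs and 0.49 in cTregs, and at H2-M10.3 they were 0.35 and 1.77. Of the 10 regions of this list, those at H2-M3 alone had all 8 Atg14-deficient libraries above all 6 controls.

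Class II genes are used mainly by B cells, dendritic cells and macrophages. Their 26 tested regions, nearest to 8 of 9 genes, included none called in eTregs and 1, at H2-Oa, called higher in cTregs, although their median log2 fold changes of 0.32 and 0.25 stood above those of all regions. H2-DMb2, which with H2-DMa forms the exchanger that loads peptides onto class II, had 40.8 ± 6.33 CPM (n = 3, SD) in control and 55.7 ± 10.5 CPM (n = 4, SD) in Atg14-deficient eTregs. The H2-Aa promoter, for a class II alpha chain, had 13.0 ± 1.65 and 13.2 ± 1.26 CPM. Summed over the class II genes, accessibility was between 195 and 245 CPM in control cTregs, 245 and 277 CPM in Atg14-deficient cTregs, 207 and 238 CPM in control eTregs and 232 and 354 CPM in Atg14-deficient eTregs. The summed myeloid markers were 49.9 to 66.9, 64.4 to 74.0, 45.5 to 65.9 and 59.4 to 81.7 CPM in these groups and the B cell markers 14.9 to 23.0, 6.23 to 16.7, 10.1 to 21.5 and 15.1 to 23.9 CPM. Their part in the class II values was not tested.

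Peptides reach class I through the immunoproteasome subunits Psmb8 and Psmb9, the transporter Tap1 and Tap2, and the loading protein Tapbp. All 5 genes had tested regions, 13 in all, of which 3 were called higher in eTregs (beside 4.59% of all tested regions) and none in cTregs, with medians of 0.49 and 0.26, beside 0.06 and 0.03. The Tapbp promoter, at 33919439 to 33919769, had 5.86, 9.97 and 7.93 CPM in control eTregs and 10.8, 12.6, 17.7 and 20.8 CPM in Atg14-deficient eTregs, so that the groups did not overlap (log2 fold change 0.96). In cTregs it had 7.82, 7.66 and 7.13 CPM in controls and 14.3, 7.79, 7.62 and 15.7 CPM in Atg14-deficient libraries, which overlapped. The Tap1 promoter had 31.4 ± 4.50 CPM (n = 3, SD) and 41.9 ± 11.6 CPM (n = 4, SD) in eTregs, a log2 fold change of 0.41. The Psmb9 region had 12.7 ± 3.46 CPM (n = 3, SD) and 21.4 ± 3.51 CPM (n = 4, SD), a log2 fold change of 0.76 in eTregs beside 0.06 in cTregs.

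**Figure D4:**
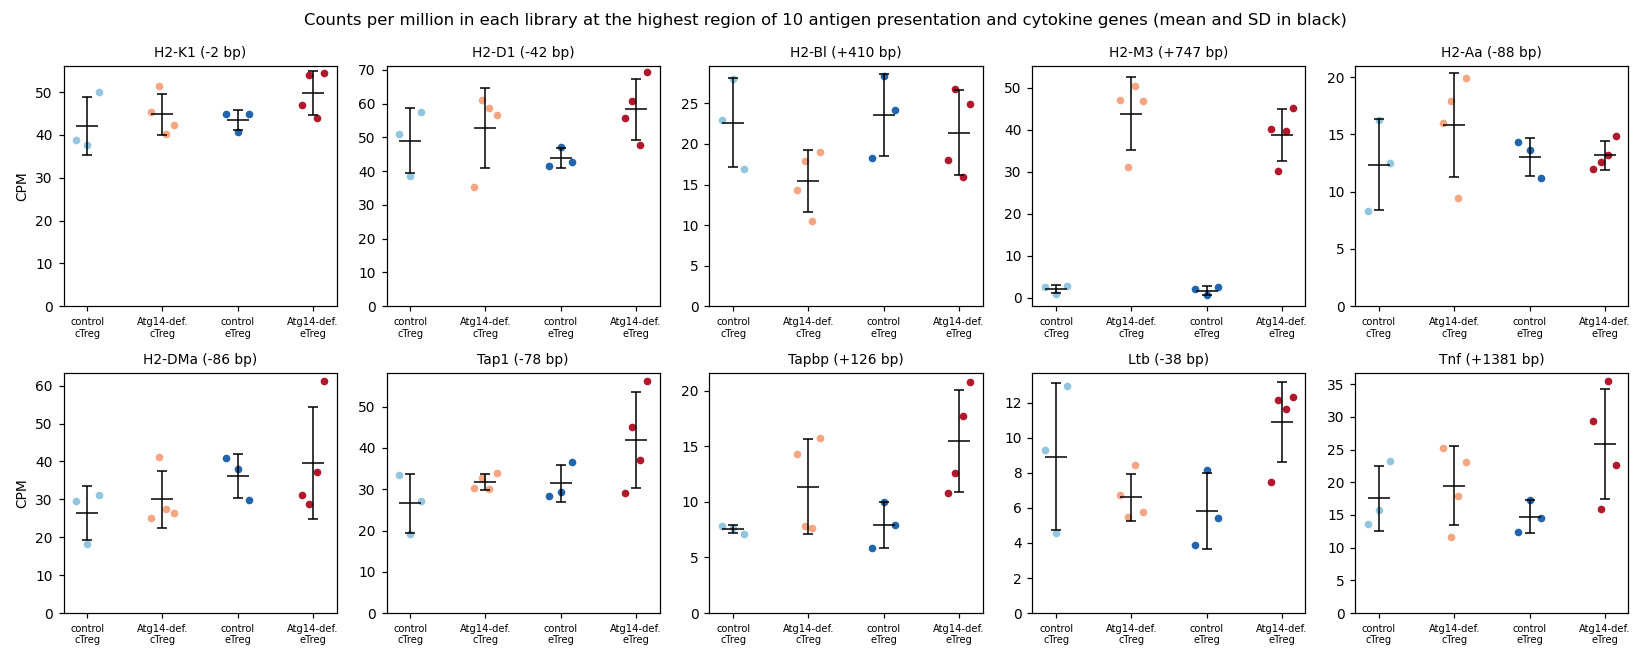
CPM of each of the 14 libraries (points), with the mean and SD of each group in black, at the most accessible region of 10 antigen presentation and TNF family genes of the segment. The genotypes overlap at the H2-K1 promoter, and at the Tapbp promoter the Atg14-deficient eTreg libraries, 10.8 to 20.8 CPM, lie above the control eTreg libraries.

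Among class III genes, the TNF family and its neighbours had 16 tested regions, 5 of them called higher in eTregs (beside 4.59% of all tested regions) and 1 in cTregs (beside 1.99%), with medians of 0.58 and 0.15. The Ltb promoter, for the lymphotoxin beta chain, had 3.90, 8.14 and 5.41 CPM in control eTregs and 7.49, 12.1, 11.6 and 12.3 CPM in Atg14-deficient eTregs, with a log2 fold change of 0.89, and overlapping groups. In cTregs its log2 fold change was -0.38. A Tnf region had 14.8 ± 2.48 CPM (n = 3, SD) in control and 25.8 ± 8.46 CPM (n = 4, SD) in Atg14-deficient eTregs (log2 fold change 0.81), beside 17.6 ± 4.99 and 19.5 ± 6.04 CPM in cTregs (0.17). Of the complement genes and their neighbours, C2 and Nelfe had 1 tested region each, and the heat shock, chromatin and RNA genes had 8. None of these regions was called in either population. The 8 include regions of Ring1 and Rxrb, which lie between H2-K1 and the class II genes and so outside class III. Hspa1a, for an inducible heat shock protein, spread from 3.16 to 79.4 CPM among the 4 Atg14-deficient cTreg libraries alone.

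Trim genes and their neighbours between the T region and H2-M3, such as Trim26, Trim39 and Ppp1r11, lie partly among the M region genes. They had 16 tested regions, with medians of 0.02 in both populations. In each population 1 was called higher, beside 4.59% of all tested regions in eTregs and 1.99% in cTregs. The Trim26 promoter had 73.7 ± 1.73 CPM (n = 3, SD) in control and 67.8 ± 9.35 CPM (n = 4, SD) in Atg14-deficient eTregs. Signalling and transcription genes telomeric of the complex had 78 tested regions, 3 called higher in eTregs (beside 4.59% of all tested regions), 8 in cTregs (beside 1.99%) and none lower in either, with medians of 0.17 and 0.04. On the centromeric side there were 24 tested regions, 1 called higher in eTregs (beside 4.59%) and none in cTregs (beside 1.99%), with medians of 0.19 and 0.21.

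Partners of the MHC on other chromosomes served as a comparison. The B2m promoter, on chromosome 2, had 99.6 ± 13.3 CPM (n = 3, SD) in control and 109 ± 9.67 CPM (n = 4, SD) in Atg14-deficient eTregs, or log2 fold changes of 0.12 (eTregs) and 0.20 (cTregs). Nlrc5, the activator of class I transcription, had log2 fold changes of 0.25 and -0.13 at its promoter on chromosome 8. Ciita, the activator of class II transcription on chromosome 16, had between 0 and 4.50 CPM in the 14 libraries. None of these 3 regions was called in either population, nor was the Cd74 promoter, with log2 fold changes of -0.21 and 0.07. The listed presentation genes on other chromosomes had 23 tested regions in all. Of these, 2 were called higher in eTregs (beside 4.59% of all tested regions), none lower, and none was called in cTregs.

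A comparison that the choice of the segment did not use was that between cell states. Control eTregs against control cTregs gave 8 of the 685 regions past the adjusted threshold (1.17%), 4 higher and 4 lower in eTregs, beside 5.30% of all tested regions and 6.22% on the rest of chromosome 17 (edgeR). Promoters passed less often than other regions and made up 31.7% of the tested regions here against 23.4% of all. Among promoters, 1 of 217 passed, beside 3.13% of all promoters, and outside promoters 7 of 468 (1.50%), beside 5.96%. In Atg14-deficient cells, which share no library with the controls, 40 regions passed (5.84%), 23 higher and 17 lower in eTregs, beside 9.81% of all tested regions and 11.9% on the rest of the chromosome. Here 12 of 217 promoters (5.53%, beside 8.14%) and 28 of 468 other regions (5.98%, beside 10.3%) passed. The share was below the background in both genotypes, a difference that was not itself tested. With the eTreg and cTreg library of each number paired, 72 regions passed in the deficient genotype, beside 15.5% of all tested regions, and 28 in controls, beside 10.4%. The other counts and all values of single regions for cell state are from the fit without this pairing. Several libraries decided these counts. Without any of control cTreg replicates 1 and 3 and control eTreg replicate 1, the control count was 5, 5 and 4, and without control cTreg replicate 2 it was 13. Without Atg14-deficient cTreg replicates 2 and 3 or eTreg replicates 1 and 4, the deficient count was 26, 19, 24 and 18. The balance of higher and lower regions in the deficient genotype turned to 7 and 12 without cTreg replicate 3, to 6 and 12 without eTreg replicate 4, and to 11 and 13 with a log2 cutoff of 1.

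Among the regions higher in control eTregs were an intron of Umodl1 and an intron of Abcg1, a cholesterol exporter. The Umodl1 region, 30961738 to 30962536, had 8.31, 6.22 and 6.24 CPM in control cTregs and 15.3, 21.5 and 14.8 CPM in control eTregs, which did not overlap (log2 fold change 1.30, SE 0.32, adjusted p = 0.0166, edgeR). It rose by 1.09 in Atg14-deficient cells (adjusted p = 0.0176, edgeR). The Abcg1 region, 31075421 to 31075852, had 4.40, 6.70 and 7.13 CPM in control cTregs and 13.0, 18.4 and 13.0 CPM in control eTregs (log2 fold change 1.30, adjusted p = 0.0225), and rose by 0.99 in Atg14-deficient cells (adjusted p = 0.0321, edgeR). The most accessible of the 10 tested Abcg1 regions, at 31067033 to 31067475, moved the other way. It changed by -0.14 in control cells (adjusted p = 0.727, edgeR) and by -0.49 in Atg14-deficient cells (adjusted p = 0.0481), short of the fold-change cutoff. At Btbd9, where a coding exon is overlapped, the change was 1.49 in control cells (adjusted p = 0.0217, edgeR) and 0.51 in Atg14-deficient cells (adjusted p = 0.384), and at the promoter of the kinase Ttbk1 it was 1.95 (adjusted p = 0.0285) and 1.09 (adjusted p = 0.124). The difference between genotypes was not significant at either, with unadjusted interaction p of 0.0711 and 0.231 (edgeR). The region next in order of p, nearest to Gm41590 at 47564505 to 47565002, had 1.42 in control cells (adjusted p = 0.0504, edgeR), short of the threshold, and 1.27 in Atg14-deficient cells (adjusted p = 0.0333).

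The regions lower in control eTregs lay at B3galt4, a glycosyltransferase gene, Treml2 and its neighbour B430306N03Rik, and Gm35204. The B3galt4 region, 33947754 to 33948091, had 8.07, 4.31 and 10.7 CPM in control cTregs and 1.95, 1.57 and 1.08 CPM in control eTregs, a log2 fold change of -2.31 (SE 0.50, adjusted p = 0.00611, edgeR), with -1.86 in Atg14-deficient cells (adjusted p = 0.00456). The B430306N03Rik region, 48318722 to 48319139, changed by -1.75 (SE 0.37, adjusted p = 0.00569) in control and by -1.11 (adjusted p = 0.0207, edgeR) in Atg14-deficient cells. Treml2, a receptor of the TREM family, had -1.63 (adjusted p = 0.0192, edgeR) at 48300155 to 48300610 in control and -0.26 (adjusted p = 0.687) in deficient cells, with an unadjusted interaction p of 0.0175. A second Treml2 region, 48293490 to 48294097, had -1.21 in control cells (adjusted p = 0.0600, edgeR), short of the threshold, and -1.28 in deficient cells (adjusted p = 0.0176). Gm35204 had 8, 6 and 2 counts in control cTregs and none in control eTregs.

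The 2 genotypes agreed in direction at most of these regions. All 8 regions past the threshold in control cells had the same sign in Atg14-deficient cells, and 37 of the 40 in Atg14-deficient cells had the same sign in controls. The lists shared 4 regions, 50% of the former and 10% of the latter. Across the 685 regions the cell-state changes of the genotypes correlated with a Pearson r of 0.52 and a Spearman rho of 0.48, given as a description since regions are not independent and share library depths.

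**Figure D5:**
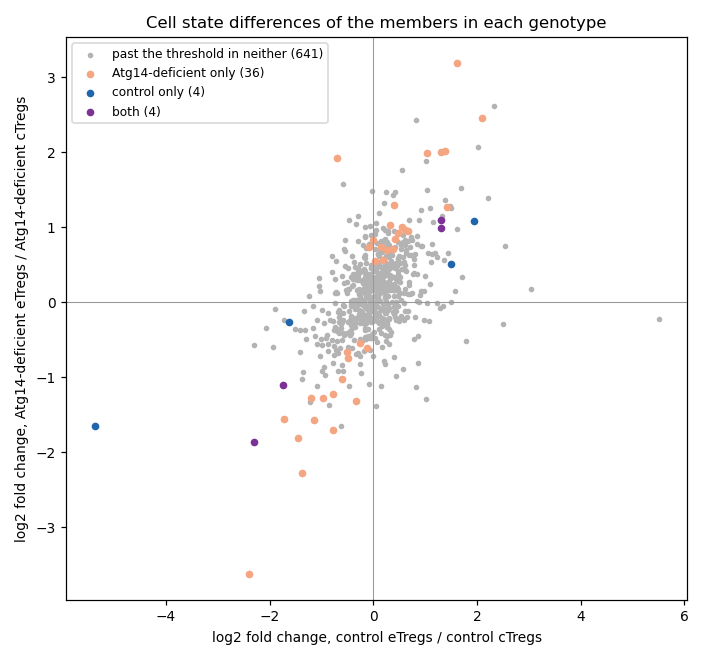
Log2 fold change of eTregs over cTregs in Atg14-deficient cells against that in control cells for the 685 tested regions, with the regions past the adjusted threshold in either genotype marked. Values are from the fit that did not pair libraries. The marked points are 36 past the threshold in Atg14-deficient cells alone, 4 in control cells alone and 4 in both.

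In Atg14-deficient cells the regions with the smallest adjusted p included the promoter of Enpp4, an ectonucleotidase gene, and a region near Atp6v1g2, a subunit of the proton pump of lysosomes and synaptic vesicles. Enpp4 fell by 0.75 on the log2 scale in eTregs (adjusted p = 0.00157, edgeR), from 68.1 ± 8.62 CPM to 40.5 ± 7.29 CPM (SD, n = 4 each), and the Atp6v1g2 region rose by 1.99 (adjusted p = 0.00248, edgeR), from 5.77 ± 2.97 CPM to 23.0 ± 3.90 CPM. Of the 10 tested regions nearest to Cd2ap, an adaptor that links CD2 to the cytoskeleton, 4 fell past the threshold, and the other 6 had log2 fold changes between -0.82 and 0.33. Its promoter had 70.5, 92.7, 77.3 and 67.1 CPM in Atg14-deficient cTregs and 52.1, 54.4, 56.4 and 48.5 CPM in Atg14-deficient eTregs, without overlap (log2 fold change -0.54, adjusted p = 0.00539, edgeR), and the other Cd2ap regions past the threshold changed by -1.28, -1.57 and -1.71. In control cells the Cd2ap promoter changed by -0.26 (adjusted p = 0.294, edgeR).

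Within the H2 complex, several promoters changed with cell state in Atg14-deficient cells. In the class III region those of Nelfe, a subunit of the negative elongation factor, Neu1, the lysosomal sialidase, Msh5, a meiotic mismatch repair homologue, and Abhd16a were higher in eTregs, by 0.73, 0.71, 0.70 and 0.96 on the log2 scale (adjusted p = 0.0110, 0.0200, 0.0239 and 0.00890, edgeR). The promoter of Cchcr1, telomeric of H2-D1, was higher by 0.93 (adjusted p = 0.0112, edgeR). In control cells these promoters changed by 0.14, 0.38, 0.27, 0.62 and 0.47 in the same order. None of them passed there (adjusted p from 0.176 to 0.772, edgeR). At Nelfe, Atg14-deficient eTreg replicate 4 was highest, at 53.4 CPM beside 32.4, 35.1 and 39.7 CPM. Of the class I lists, the H2-M10.4 region at 36431481 to 36431817 rose by 2.00 (adjusted p = 0.0229, edgeR), and no tested region of the classical class I, Q and T region, class II or peptide supply lists passed in either genotype.

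Did the genotype effect differ between the populations? No region of the segment passed the adjusted threshold for the interaction, and 20 passed the unadjusted one (2.92%, beside 3.05% of all tested regions), 15 with the more positive fold change in eTregs and 5 with the more positive one in cTregs (edgeR). Under TMM normalization the split was 12 and 8. Without control cTreg replicate 2 there were 35, and without control eTreg replicate 2 there were 31. The smallest p was at the promoter of Trim10, at 36869376 to 36869592, which had no count in control cTregs, 6, 2, 13 and 13 in Atg14-deficient cTregs, 6, 12 and 0 in control eTregs and 10, 4, 8 and 10 in Atg14-deficient eTregs (unadjusted p = 0.00496, edgeR). At Btbd9, from 30559559 to 30559901, the effect was 0.48 in eTregs and -0.92 in cTregs, and at Tnfrsf21, which encodes a death receptor, it was -0.81 and 1.48.

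Summed over the segment, accessibility was 8678 ± 885 CPM in the 7 eTreg libraries and 8208 ± 363 CPM in the 7 cTreg libraries, which was within the spread (difference 470 CPM, exact permutation test, two-sided, p = 0.226). In control cells it was 8064 ± 470 CPM in eTregs and 7957 ± 352 CPM in cTregs (SD, n = 3 each, exact permutation test, p = 0.800, where the smallest possible is 0.1). In Atg14-deficient cells it was 9140 ± 870 CPM and 8397 ± 267 CPM (SD, n = 4 each, exact permutation test, p = 0.0571), and the highest library was eTreg replicate 4, the one that moved the genotype median. With same-numbered libraries paired, eTregs were higher in 4 of 4 deficient pairs, by 27.5 to 1963 CPM (exact sign-flip permutation test, two-sided, p = 0.125, the smallest that 4 pairs allow). Over all 7 pairs they were higher in 5 (p = 0.172, the same exact test, a comparison chosen after seeing the data).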

How the data were processed

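Bulk ATAC-seq of 14 libraries of sorted splenic Tregs was analysed. Per the paper's methods, the authors used Trimmomatic for trimming, BWA for alignment, and Picard and samtools to keep non-duplicate paired reads of mapping quality 1 or more. Ends were shifted to the transposase cut, nucleosome-free fragments selected by size, and MACS2 peaks of single libraries merged where 50% or more of a genotype's replicates had them, with bedtools counts taken over the merged set. The deposited values are raw counts per region, whole numbers without normalization. The submitters' processing notes name cutadapt 1.9, Picard 1.65 and MACS2 2.1.0.20150603, and builds mm10 and GRCm38, while the methods name mm9. Region ends lie within GRCm38 chromosomes and promoters fall on GRCm38 starts, so GRCm38 was used.

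Positions are counted from 1. Each region was named by the nearest RefSeq transcription start, and a promoter region overlapped the 1000 bases before to 100 bases after it. Libraries were scaled by total counts, regions were filtered by edgeR's filterByExpr, and 1 robust quasi-likelihood model with 4 group coefficients was fitted to all 61366 tested regions (edgeR 4.0.16, limma 3.58.1, R 4.3.3), with Benjamini-Hochberg adjustment over all of them. The biological coefficient of variation was 25.6%. Motifs were searched in the central 200 bp, class I likeness with blastn 2.17.0, and runs of 50 bases in the whole genome (Python 3.11.15, SciPy 1.17.1, pandas 2.3.3, NumPy 2.4.6, matplotlib 3.10.9). The fitting step was tested on simulated counts. Depth was between 2242983 and 5548189 counts, and the median tested region of the segment had a mean of 22.4 counts per library.

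The segment, the gene lists and the tests were chosen with earlier results of these data known. The text names, for each listed gene, its region of highest mean count (up to 4 genes a list), every region past the adjusted threshold in a genotype contrast or with genotypes apart in all 14 libraries, the 5 regions of smallest p in each direction for control eTregs against cTregs, and the 3 of smallest p for the interaction. Other genes were named after their values were seen. Alternatives were TMM normalization, DESeq2 size factors and the DESeq2 1.42.0 Wald test, loess offsets, a filter of 1 count in any library or of 10 in all, a log2 cutoff of 1, fits to the compared groups alone, the replicate number as a block, and each library left out. Same-numbered eTreg and cTreg libraries of the Atg14-deficient genotype deviated together from their group means in all 4 pairs (correlation 0.119 to 0.243), so the numbers pair these libraries. No column of the table was without a sample.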

Additional observations from a re-analysis of the deposited data

Results flagged for a closer look

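In 6 of the 132 groups of 4 libraries examined at the named regions, a single library stood apart from the other 3, by Dixon's criterion at the 95% level, and chance alone flags about 1 in 20 such groups. Among Atg14-deficient cTregs, the highest library had 41.3 CPM at the H2-DMa promoter, 74.7 CPM at the H2-T10 promoter, 68.0 CPM at the Srf promoter and 26.9 CPM at the Gabbr1 promoter. Among Atg14-deficient eTregs, the lowest library had 7.49 CPM at the Ltb promoter, and the highest had 80.1 CPM at the Supt3 promoter. The groups of 3 control libraries were not examined in this way.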

How the results depend on the processing

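With at least 10 counts required in every library, the 74 regions called in eTregs became 36, the 5 past the adjusted threshold 0, the 54 called in cTregs 19, the 2 past the adjusted threshold 0, the 10 with genotypes apart 0, the 8 and 40 regions of the cell-state contrasts 2 and 24, and the 20 of the interaction 9, since that filter removes every region with a lower count in any library. With a log2 cutoff of 1 there were 44 called in eTregs, 24 for cell state in Atg14-deficient cells (11 higher and 13 lower, where 23 were higher and 17 lower) and 12 for the interaction. The DESeq2 Wald test placed 6 regions past the adjusted threshold between genotypes in cTregs, and the cause was not tested. No share over all tested regions stands beside the counts of these settings or of libraries left out. These counts therefore do not tell whether the segment moved apart from the other regions. Each library left out in turn gave between 50 and 102 called in eTregs with 2 to 5 past the adjusted threshold, 47 to 58 in cTregs with 2 to 3, 10 to 14 with genotypes apart, 4 to 13 and 18 to 50 for cell state in control and Atg14-deficient cells, 15 to 35 for the interaction, and a difference in summed CPM between 179 and 640. Control and Atg14-deficient libraries that share a number were not paired (correlation -0.217 to 0.0914), and with that replicate block 67 regions were called in eTregs (9.78%, beside 5.69% of all tested regions) and 53 in cTregs (7.74%, beside 3.46%). With same-numbered eTreg and cTreg libraries as a replicate block there were 28 regions past the threshold in control cells, where 2 of 3 pairs correlated above 0.1, 72 in Atg14-deficient cells, and 30 called for the interaction (4.38%, beside 4.52% of all tested regions), and every library correlated best with its own number. The median genotype difference in eTregs was 0.18 under TMM, beside 0.01 over all regions. For single regions, 620 further values were set beside the main fit, and 556 were labelled the same, 49 weaker, 15 stronger and 0 reversed. Some calls between genotypes in eTregs depended on the setting. The distal H2-T3 region passed the adjusted threshold there in 9 of 15 settings, the Tmprss3 region in 10 and the Apobec2 region in 11. Depth limits regions with few control counts, where fold changes are known only within wide intervals.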
